A study of Rattus norvegicus with 2 samples.

Results

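The control row of the Atlas Rat 1.2 membrane holds 9 spots, those whose position begins with G, out of 1185 genes on the array. The 8 described by name here are, in position order, polyubiquitin (R372, G11), Pla2g1b (R029, G13), Hprt1 (R366, G15), Gapdh (R367, G27), the alpha-1 tubulin Tuba1 (R373, G29), Odc1 (R369, G31), Actb (R370, G43) and Rps29 (R371, G47). They were measured in primary cultures of carotid body cells from Sprague Dawley rats, with 16 carotid bodies per culture and 7 days in culture. The normoxia group was kept at 21% oxygen and the chronic hypoxia group at 1% oxygen, and each group is represented by 3 membranes hybridised with 32P-labelled cDNA made from amplified RNA. All cultures had the same serum-supplemented medium with nerve growth factor. The labels call the membranes replicates without saying whether each came from its own culture, so the spread behind every p-value is one between membranes and may be only technical.

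A reference gene is one whose transcript is taken to stay level between conditions, so that other transcripts can be expressed relative to it. Cells under low oxygen stabilise hypoxia-inducible transcription factors, which raise transcripts of glycolytic enzymes in many cell types. Such cells also lower energy-demanding work such as protein synthesis. Genes commonly used as references are therefore checked anew for each hypoxic tissue. The carotid body is the arterial oxygen sensor, and its chemoreceptor cells are cultured together with supporting, vascular and connective tissue cells. Of 9 spots for chemoreceptor cell markers, 3 (Dbh, Slc6a3 and Cpe) gave signal above background on each of the 6 membranes and 5 on none. In such mixed cultures fewer cells of a type and less RNA per cell cannot be told apart.

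Median intensity, in the scanner's linear units, was 1704 to 3409 on 5 membranes and 16411 on chronic hypoxia membrane 3, whose lowest spot read 14591. A spot was counted as detected on a membrane, meaning above background, where it passed that membrane's median by over 3 times the spread seen below the median. Between 72 genes (chronic hypoxia membrane 2) and 205 genes (normoxia membrane 3) met this, and 867 of 1185 met it on no membrane. Readings within 5% of the scanner's ceiling of 65535 are called near the ceiling, and there a difference or an SD is inexact. Chronic hypoxia membranes 1 and 3 had a rank correlation of 0.772 across genes, against at most 0.580 for any other pair of membranes.

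The 9 control spots divided by signal. Polyubiquitin and Rps29 were detected on all 6 membranes, and Hprt1 and Gapdh on 5, missing chronic hypoxia membrane 2. Actb was detected on 2 membranes, Tuba1 and Odc1 on 1, and Pla2g1b on none. Over the whole array 49 genes were detected on all 6 membranes and 152 on at least 3. Between the oxygen conditions 0 of the 9 control genes passed in limma (adjusted p under 0.05), as did 0 of 1038 genes tested (0%). An unadjusted p under 0.05 was reached by 0 of the 9 and by 7.23% of all tested genes. The 9 had a median log2 difference of -0.11 between chronic hypoxia and normoxia, with 4 higher and 5 lower, beside a median of 0.03 over all tested genes. A p that misses the threshold does not show that a gene is stable, and the intervals below give the changes the data still allow.

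**Figure D1:**
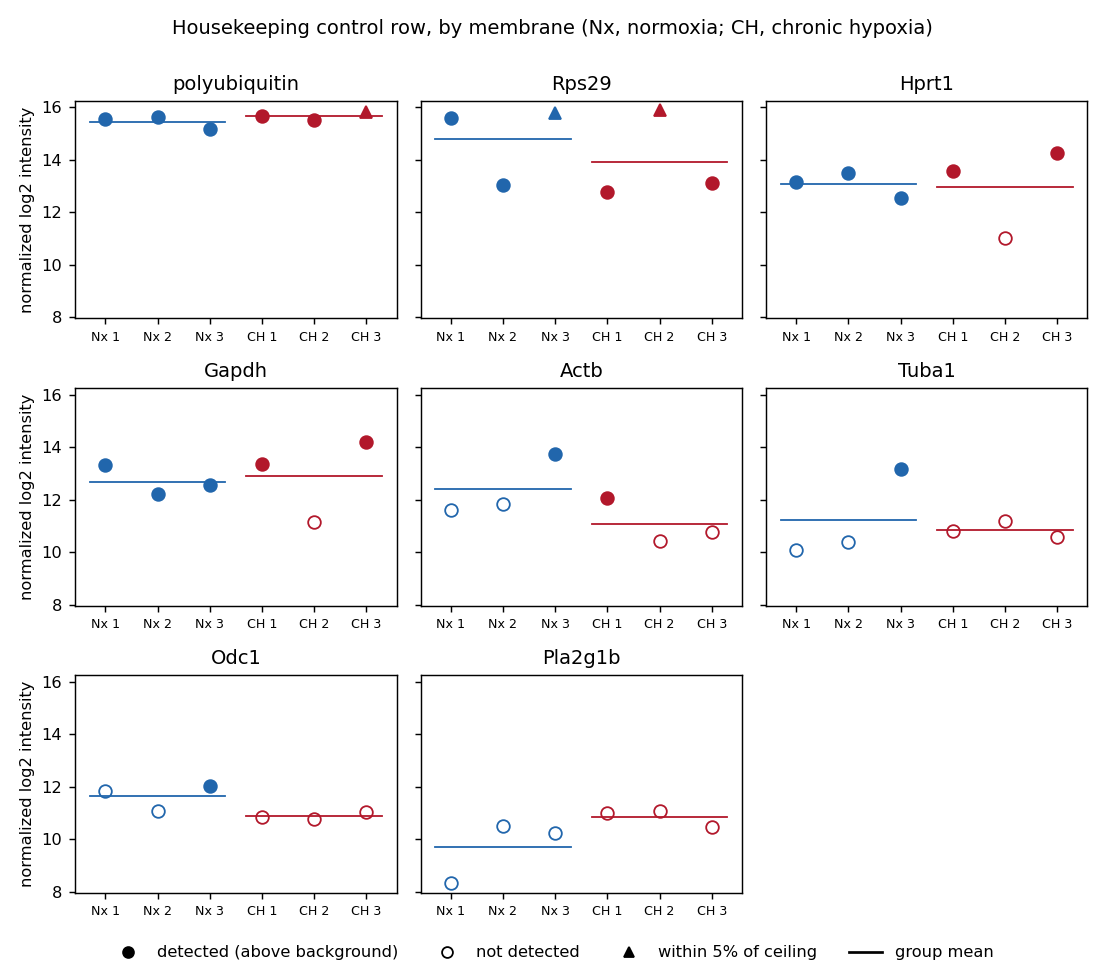
Normalized log2 intensity (vertical axis) of 8 control spots on the 3 normoxia (Nx) and 3 chronic hypoxia (CH) membranes, with filled symbols where the spot was detected, open ones where it was not, triangles within 5% of the ceiling and lines at the group means. Polyubiquitin stays between 15.17 and 15.81, Rps29 splits into a high and a low set inside each condition, and the lower 2 rows of panels show mostly open symbols except for Gapdh.

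Polyubiquitin, a precursor of joined ubiquitin units that are cut apart and used to tag proteins for degradation, had the smallest SD over membranes in the row. It read 59259, 35193 and 61467 in normoxia (membranes 1, 2 and 3, the order used throughout) and 58747, 44589 and 63531 in chronic hypoxia. The lower readings were those of membrane 2 in each condition, and the groups overlapped. Among all 1185 spots it ranked between 3 and 19 in brightness on every membrane, a measure that needs no normalization. After normalization its log2 intensity under normoxia was 15.46 ± 0.25 (SD, n = 3), and under chronic hypoxia it was 15.66 ± 0.15 (SD, n = 3). The difference was 0.21 with an SE of 0.53 and a 95% interval from -0.96 to 1.37 (limma adjusted p = 0.938, exact permutation p = 0.4, two-sided). The exact permutation tests run over the 20 ways to assign 3 of 6 membranes, and the smallest p they can give is 0.1. The interval runs from 0.514-fold to 2.59-fold, so a change of 2-fold upward is within it.

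Polyubiquitin was also close to the ceiling, where a spread is compressed. The chronic hypoxia membrane 3 value was within 5% of the ceiling, and normoxia membrane 3 was just below that zone. Without near-ceiling values the difference was 0.13. Its SD over the 6 membranes was 0.22 after quantile normalization and 0.34 without normalization. Only 4 of the 152 genes detected on at least 3 membranes had a smaller SD (2.63%). Among the 49 genes detected on all 6 membranes, as polyubiquitin was, 4 also had a smaller SD, and the median SD was 0.54. The labels name no scan format, and the formats used here were inferred from the step size of the values on each membrane. The difference was 0.12 within the inferred format shared by membranes 1. It was 0.09 within the one shared by normoxia membranes 2 and 3 and chronic hypoxia membrane 2. Each of these differences rests on a single chronic hypoxia membrane. The array's name does not say which polyubiquitin gene the spot represents, and transcripts of more than one ubiquitin gene may bind it.

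Rps29, a protein of the small ribosomal subunit, was the other spot seen on every membrane and had the largest SD. It read 59578, 8170 and 65535 in normoxia and 6159, 65250 and 28243 in chronic hypoxia. No spot of the array read higher on chronic hypoxia membrane 2, while on normoxia membrane 3 it was 1 of 6 spots at the ceiling itself, where their order is unknown. It ranked 100 on chronic hypoxia membrane 1. High and low readings occurred in both conditions, so the groups overlapped. Its normalized level came to 14.81 ± 1.52 (SD, n = 3) under normoxia and to 13.92 ± 1.71 (SD, n = 3) under chronic hypoxia, and both SDs exceeded the difference of -0.89 (SE 0.97, 95% interval -3.02 to 1.25, limma adjusted p = 0.835). Its SD over 6 membranes was 1.52, larger than that of 92.1% of the 152 detected genes. Within the scan formats the Rps29 difference took opposite signs, -2.82 and 1.46. Normoxia membrane 3 and chronic hypoxia membrane 2 were near the ceiling, and without such values the difference was -1.38. Leaving out 1 membrane gave -0.29 without chronic hypoxia membrane 1 and -1.81 without normoxia membrane 2.

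**Figure D2:**
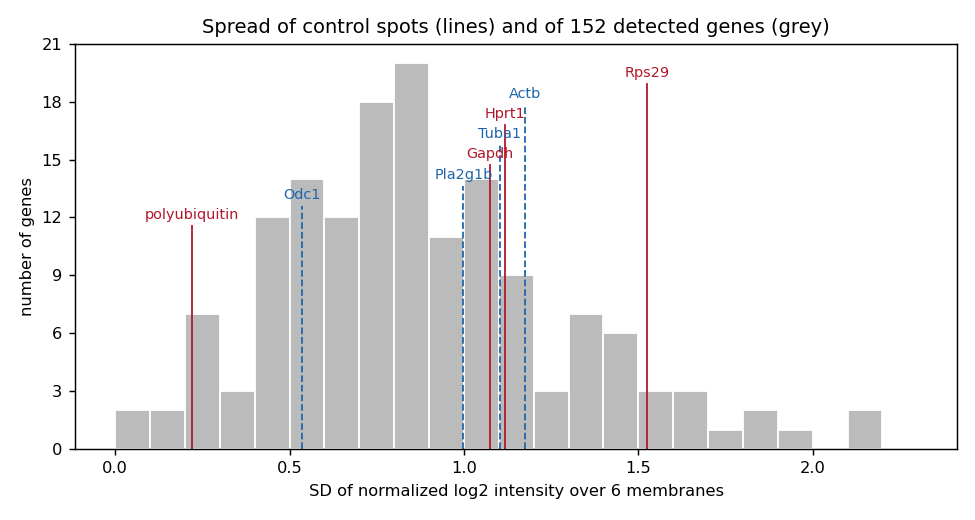
SD of the normalized log2 intensity over 6 membranes (horizontal axis) for the 152 genes detected on at least 3 membranes (grey bars, number of genes) and for 8 control spots (lines, solid red for the 4 detected on at least 5 membranes and dashed blue for the others). Polyubiquitin at 0.22 lies at the low end and Rps29 at 1.52 toward the high end, and the SDs of spots at background describe background.

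Hprt1, which salvages purine bases, and Gapdh, the glycolytic enzyme that oxidises glyceraldehyde 3-phosphate, held middle levels. Hprt1 read 10734, 10973 and 13458 in normoxia and 11663, 4021 and 38919 in chronic hypoxia. Gapdh read 11618, 6303 and 13462 in normoxia and 10726, 4127 and 38863 in chronic hypoxia. On chronic hypoxia membrane 2 both were at background, and on chronic hypoxia membrane 3, which has the high base level, both had their highest readings. The chronic hypoxia values therefore bracketed the normoxia values in both genes. On the normalized log2 scale Hprt1 had group means of 13.06 ± 0.48 (SD, n = 3) under normoxia and 12.95 ± 1.70 (SD, n = 3) under chronic hypoxia, which differ by -0.11 on the log2 scale (SE 0.81, 95% interval -1.91 to 1.69). Its limma adjusted p was 0.991. Gapdh was 12.69 ± 0.56 (SD, n = 3) and 12.91 ± 1.59 (SD, n = 3), which differ by 0.22 (SE 0.79, interval -1.54 to 1.98, limma adjusted p = 0.960). These intervals run from 0.265-fold to 3.23-fold for Hprt1 and from 0.344-fold to 3.93-fold for Gapdh.

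Both differences depended on single membranes. Without chronic hypoxia membrane 2, the membrane with the fewest genes detected, the difference was 0.91 for Hprt1 and 1.21 for Gapdh (limma adjusted p = 0.558 and 0.496). Without chronic hypoxia membrane 3 it was -0.73 and -0.41. Within the scan format of membranes 1 the differences were 0.43 and 0.07, and within the other format, where the chronic hypoxia spots were at background, -1.99 and -1.25. The SD over 6 membranes was 1.12 for Hprt1 and 1.08 for Gapdh, and 76.3% and 74.3% of the 152 detected genes had smaller ones. Over the 5 membranes where each was detected, which leaves out chronic hypoxia membrane 2, the SD was 0.62 for Hprt1 and 0.78 for Gapdh, and over the same membranes 38.8% and 53.9% of those genes had smaller ones.

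Of all pairs in the row, Hprt1 and Gapdh had the steadiest ratio. A log2 ratio of 2 spots on one membrane is free of any scale factor that the membrane's spots share. The ratio of Hprt1 to Gapdh, from background-corrected values, was -0.13, 1.04 and 0.00 in normoxia and 0.13, -0.07 and 0.00 in chronic hypoxia. Every membrane except normoxia membrane 2 lay within 0.13 of 0, including chronic hypoxia membrane 2, where both spots were at background and the ratio is not one of transcripts. The SD of this ratio over 6 membranes was 0.44, the smallest of the 36 pairs in the row. It was 0.48 over the 5 membranes where both were detected. The pair was picked as the smallest, so its SD is a description. Of the 3828 pairs among the 88 genes detected on at least 5 membranes, 4.02% had a smaller SD over 6 membranes, and the median was 1.06. The ratio differed by -0.29 between the conditions, with overlapping groups (exact permutation p = 0.9, two-sided).

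Promoter sequences are shown for this pair because their ratio was the steadiest in the row while their promoters carry different motifs. RefSeq promoter windows on GRCr8 of 300 bases around the start were matched by symbol for 4 of the 9 genes: Gapdh, Hprt1, Odc1 and Pla2g1b. Capitals mark, on either strand, the cores of the hypoxia response element (ACGTG and GCGTG), the GC box (GGGCGG) and the TATA box (TATAAA). The Hprt1 window is chrX:137655494-137655793 on the plus strand and the Gapdh window is chr4:159652418-159652717 on the minus strand, each written 5′ to 3′ along its gene.
Hprt1: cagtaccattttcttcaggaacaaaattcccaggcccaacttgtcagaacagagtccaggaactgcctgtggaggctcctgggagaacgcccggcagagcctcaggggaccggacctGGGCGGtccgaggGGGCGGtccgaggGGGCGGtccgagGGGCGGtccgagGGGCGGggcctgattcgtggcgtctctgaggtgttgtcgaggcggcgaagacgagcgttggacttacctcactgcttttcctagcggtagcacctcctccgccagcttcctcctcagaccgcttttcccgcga
Gapdh: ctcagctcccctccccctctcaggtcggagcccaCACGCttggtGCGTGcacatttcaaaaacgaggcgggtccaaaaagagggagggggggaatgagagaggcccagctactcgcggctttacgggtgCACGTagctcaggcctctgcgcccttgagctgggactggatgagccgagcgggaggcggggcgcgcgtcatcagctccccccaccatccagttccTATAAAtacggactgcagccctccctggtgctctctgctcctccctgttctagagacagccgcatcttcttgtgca
The Hprt1 window holds 5 GC boxes, no hypoxia response element core and no TATA box. The Gapdh window holds 3 hypoxia response element cores (1 ACGTG and 2 GCGTG), 1 TATA box and no GC box in these letters. An ACGTG or GCGTG core occurs in 41.6% of the 33469 windows in the table, GGGCGG in 33.1% and TATAAA in 14.2%. The Odc1 window holds 2 hypoxia response element cores and 5 GC boxes, and the Pla2g1b window holds a TATA box alone. A match describes the letters and is no evidence of binding. Whether motifs bear on how steady a ratio is was not tested.

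Actb, the cytoplasmic actin of the cell's filament network, and Tuba1, a subunit of microtubules, were at or near background on most membranes. Actb read 3878, 5582 and 26202 in normoxia and 3512, 3306 and 16699 in chronic hypoxia. The normoxia membrane 3 reading was 9.77 times its membrane's median, while on the other 5 membranes Actb lay between 0.970 and 2.06 times the median. It was detected on normoxia membrane 3 and chronic hypoxia membrane 1. Its log2 difference was the largest of the members with signal in both conditions, -1.33 with an SE of 0.73 and an interval from -2.95 to 0.29 (limma adjusted p = 0.645, exact permutation p = 0.3, two-sided), and the groups overlapped. It shrank to -0.63 without normoxia membrane 3. The first scan format alone gave 0.43 and the second -2.37.

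Tuba1 read 2116, 3303 and 18972 in normoxia and 1910, 4133 and 16539 in chronic hypoxia. Only normoxia membrane 3, at 7.08 times its median, was detected. Odc1, which makes the polyamine putrescine from ornithine, read 4241, 4233 and 8794 in normoxia and 1959, 3709 and 17139 in chronic hypoxia, and it too was detected on normoxia membrane 3 alone. The highest multiple of the membrane median for Actb, Tuba1 and Odc1 thus came from the same membrane, the one with the most genes detected. No fold is given for Tuba1 and Odc1, because the bound against the lowest level called detected was under 1 for both. Odc1 was the 1 member of the 9 whose normalized values did not overlap between the conditions, and 13.9% of all tested genes also had groups without overlap (exact permutation p = 0.1, the smallest possible). Its chronic hypoxia spots were all at background. The rat annotation lists Tuba1 as a synonym of both Tuba1a and Tuba1b, so the spot is not assigned to either.

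Pla2g1b, a secreted phospholipase best known from the pancreas, was not detected anywhere. It read 1289, 3406 and 2372 in normoxia and 2115, 4027 and 16299 in chronic hypoxia. In multiples of the membrane median, it lay between 0.531 and 1.24, so it followed each membrane's base level. No difference between conditions is given for it.

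**Figure D3:**
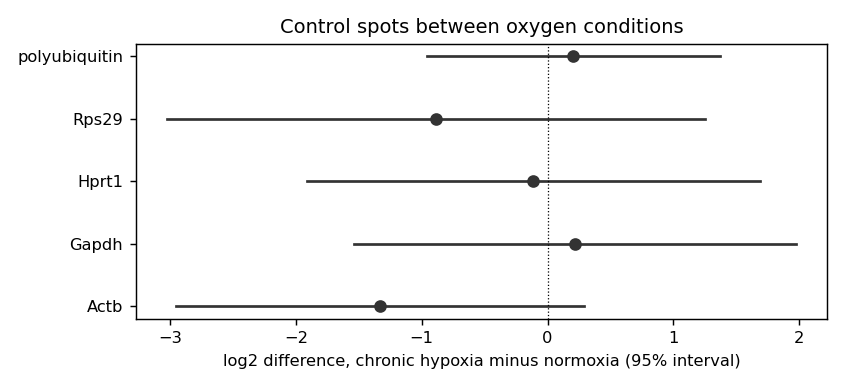
Log2 difference between chronic hypoxia and normoxia (points, horizontal axis) with its 95% interval from limma for the 5 control spots detected on at least 1 membrane of each condition. All 5 intervals include 0, and that of polyubiquitin, from -0.96 to 1.37, is the narrowest.

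Ratios inside the row also put Rps29 as the least steady member, but they did not put polyubiquitin first. For each member the SDs of its log2 ratios to the other 8 were averaged, the M value of the geNorm method, without stepwise removal and from background-corrected values. M was 1.18 for Odc1, 1.22 for polyubiquitin, 1.43 for Hprt1, 1.44 for Gapdh, 1.47 for Actb and Tuba1, 1.54 for Pla2g1b and 2.00 for Rps29. Odc1 was at background on 5 of 6 membranes, so its M describes background. Among the 4 members detected on at least 5 membranes, M was 1.25 for Gapdh, 1.26 for polyubiquitin, 1.32 for Hprt1 and 2.09 for Rps29. The ratio of polyubiquitin to Gapdh was 2.46, 2.92 and 2.27 in normoxia and 2.53, 4.30 and 1.01 in chronic hypoxia. Its chronic hypoxia values spread over both sides of the normoxia values. The highest of them, on chronic hypoxia membrane 2, is a ratio to a Gapdh spot at background. The ratio of polyubiquitin to Hprt1 had an SD of 0.36 in normoxia and 1.69 in chronic hypoxia, where membrane 2 again rests on a spot at background. Over the 5 membranes where both spots were detected, the SD was 0.72 for the ratio to Gapdh (1.06 over 6) and 0.63 for the ratio to Hprt1 (1.11 over 6).

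To show what each control would do as a normalizer, all genes were scaled to 1 control at a time, and the spread over membranes was taken for the other 148 genes detected on at least 3 membranes. Scaling to a single control was added after the data were seen. Without normalization the median SD over 6 membranes was 1.01 on the log2 scale. It was 0.94 after scaling to polyubiquitin, 1.02 after Gapdh, 1.04 after Hprt1 and 1.96 after Rps29. Scaling to Rps29 widened the spread of 145 of the 148 genes, scaling to Hprt1 that of 64, to Gapdh that of 69 and to polyubiquitin that of 32. The mean of polyubiquitin and Rps29, the 2 controls detected on all membranes, gave 1.31. Methods that use all genes gave 0.96 (median scaling), 0.85 (quantile) and 0.74 (cyclic loess). Quantile normalization and cyclic loess equalise the membranes by construction.

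**Figure D4:**
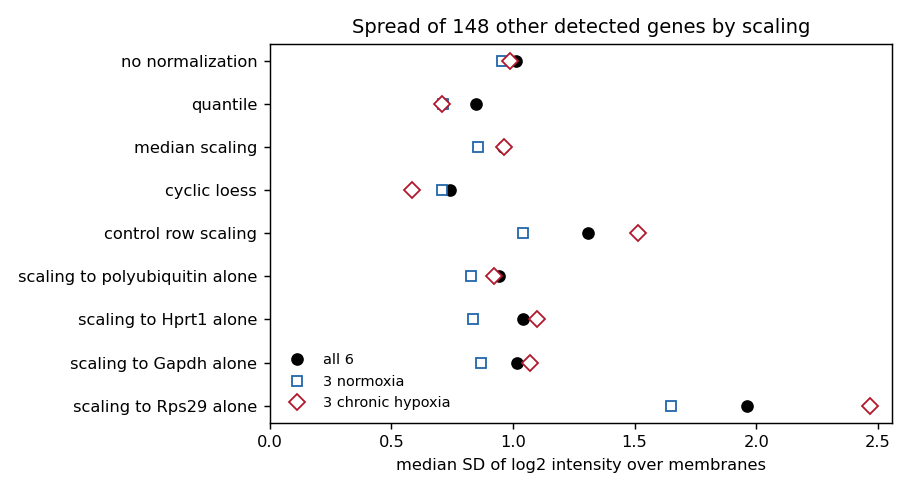
Median SD over membranes (horizontal axis, log2 units, starting at 0) of the 148 other detected genes under each scaling, over all 6 membranes (black circles), the 3 normoxia membranes (blue squares) and the 3 chronic hypoxia membranes (red diamonds), where control row scaling is the mean of polyubiquitin and Rps29. Scaling to Rps29 gives 1.96, the widest value for all 6 membranes, against 0.94 for polyubiquitin and 1.01 without normalization.

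Scaling to a control subtracts that control's own unnormalized difference from the difference of every gene, so the values over the array restate the controls' differences. The median log2 difference of the 1038 tested genes was -0.17 without normalization, -0.19 after scaling to polyubiquitin, -0.13 after Gapdh, 0.16 after Hprt1 and 0.60 after Rps29. The share of tested genes that were higher in chronic hypoxia was 40.8% with polyubiquitin, 43.8% with Gapdh, 57.2% with Hprt1 and 76.4% with Rps29, beside 51.8% with quantile normalization. No gene passed in limma with any of the 4 controls, where genes with an unadjusted p under 0.05 numbered 50 with polyubiquitin, 5 with Gapdh, 4 with Hprt1 and 0 with Rps29.

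Nos2 and Edn1, from the gene families that the series is about, were expressed relative to each control. Nos2, the inducible nitric oxide synthase, was detected on 2 membranes of each condition. Its log2 difference between chronic hypoxia and normoxia was 1.19 relative to polyubiquitin, 1.26 to Gapdh, 1.54 to Hprt1 and 1.98 to Rps29, beside 1.77 with quantile normalization. Edn1, the precursor of the vasoconstrictor endothelin-1, was detected on 3 membranes, of which 2 were hypoxic. Its difference was 0.03 relative to polyubiquitin, 0.09 to Gapdh, 0.38 to Hprt1 and 0.82 to Rps29. All of these were positive, and the exact permutation p values (two-sided, 12 comparisons with the mean of the 4 controls and quantile normalization included) lay between 0.2 and 1, or between 0.72 and 1 after Benjamini-Hochberg adjustment. The order of the controls is set by their own differences and is the same for any target.

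Genes outside the row that are often used as references gave further candidates. Of 24 such spots, among them ribosomal proteins, elongation factors and 14-3-3 proteins, 15 were detected on at least 3 membranes and 3 on all 6, and 0 of 23 tested passed (12 higher and 11 lower in chronic hypoxia, median log2 difference 0.06). Rpl11, a large-subunit ribosomal protein and 1 of the 3, read 23197, 17520 and 43662 in normoxia and 21644, 15431 and 46631 in chronic hypoxia. Its log2 difference was 0.36 with an SE of 0.53 (limma adjusted p = 0.863) and its SD over 6 membranes 0.30, at a level clear of the ceiling. Rpl36a, also of the large subunit, had an SD of 0.53 and a difference of 0.28 (SE 0.59). Rps12, of the small subunit, had an SD of 0.92 and a difference of 1.23 (SE 0.62, limma adjusted p = 0.645). Rps29 thus spread more widely than any of these 3 ribosomal genes.

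Of 8 genes of glucose uptake and glycolysis, the pathway of Gapdh, 0 passed. In chronic hypoxia 3 were higher and 5 lower, with a median log2 difference of -0.27, beside 538 higher and 500 lower over all tested genes. Only 3 of the 8 were detected on at least 3 membranes and 3 on none, so these counts and the median largely describe spots at background. The aldolases Aldoa and Aldoc were detected on all 6 membranes, with differences of 0.06 (SE 0.77) and 0.01 (SE 0.60). Aldoa was near the ceiling on 1 membrane. Glucose transporter genes Slc2a1 and Slc2a3 were detected on none.

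Among the 32 genes outside the row that were detected on all 6 membranes and never near the ceiling, the 5 with the smallest SD over membranes were named. They were the alcohol dehydrogenase A subunit (0.19), the proteinase PCSK7 (0.22), mitochondrial aldehyde dehydrogenase 2 (0.23), Rpl11 (0.30) and the glutamate decarboxylase GAD67 (0.32). PCSK7 read 61804 on normoxia membrane 3 and 61485 on chronic hypoxia membrane 2, just below the near-ceiling zone. Aldehyde dehydrogenase 2 reached 59208 on chronic hypoxia membrane 3, so the spread of these genes may be compressed too. After quantile normalization the SD of polyubiquitin, 0.22, lay among theirs. Without normalization it was 0.34, below theirs, which ran from 0.35 to 0.70. The 5 were picked by their SD after quantile normalization, so this does not rank polyubiquitin against other genes without normalization. The genes whose log2 ratio to polyubiquitin was steadiest, out of 48 genes detected on all membranes, were aldehyde dehydrogenase 2 with an SD of 0.09 and Nos3 with 0.21, against a median of 0.69. Nos3 was near the ceiling on 4 membranes. For Rps29 the smallest SDs were 1.28, for c-N-ras, and 1.29, for Aldoc, so no gene followed its swings closely.

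The authors' deposited table, with 1 averaged and normalized intensity per gene and condition, listed 7 of the 9 control genes above 0 in both conditions, against 11.1% of all 1185 genes. Polyubiquitin stood at 46901 and 50097 (normoxia, then chronic hypoxia) in the authors' deposited table, a ratio of 1.07, and Hprt1 at 11048 and 9761, a ratio of 0.884. The authors' deposited table gave ratios of 1.40 for Gapdh (6446 and 8998), 1.25 for Rps29 (32285 and 40425) and 1.18 for Actb (5790 and 6843). For Tuba1 and Odc1 the authors' deposited table gave 0.746 and 1.16. For Rps29 and Actb these ratios are above 1 while the membranes' log2 differences, -0.89 and -1.33, are below 0. The intervals of both differences include 0, and a ratio of mean intensities is not the same measure as a difference of mean log2 values. For Odc1 the ratio is also above 1, while its normalized values were lower on each chronic hypoxia membrane than on any normoxia membrane. How the authors' deposited table was averaged over membranes is not given in the sources used here. The authors' deposited table listed Pla2g1b at 0 for normoxia and gave it 6178 for chronic hypoxia, although it was not detected on any membrane.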

How the data were processed

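The deposited values are 1 linear intensity per spot and membrane, read by phosphorimager and quantified with AtlasImage V2.0 per the labels' protocols. Background is included, membranes are not normalized, and the number of arrays limits precision. From these intensities, normexp correction (offset 50), log2 and quantile normalization gave the values tested. The 1038 genes that passed the 25th percentile of intensity on 3 or more membranes entered lmFit and eBayes (limma 3.58.1, R 4.3.3) with a term for group, adjusted by Benjamini-Hochberg. Ratios between spots and scalings to controls used the background-corrected log2 values without quantile normalization. A second table holds the authors' normalized mean intensities. The step size of the values differs between membranes and was taken as a scan format, which the labels do not name. The members, lists and tests were chosen with earlier results of these data known. Of the 9 control genes 8 are named; 1 control gene and 1 listed gene are counted but not reported here. Other genes are named from the lists when above background on all membranes, by smallest SD or by steadiest ratio. Aldoc, c-N-ras and the glucose transporters came from these rules or were singled out after their values were seen. Alternatives covered background, normalization, filter, blocks, weights and left-out membranes. The fit was tested on simulated data. Python 3.11.15 was also used.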

Additional observations from a re-analysis of the deposited data

How the results depend on the processing

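The count of 0 genes past the threshold held under all alternatives, with a lowest limma adjusted p of 0.0512 without normalization. Polyubiquitin (0.01 to 0.39), Rps29 (-1.84 to -0.29) and Actb (-1.80 to -0.63) kept their sign in every fit run. The 0.39 came from control row scaling. There polyubiquitin and Rps29 set the scale, so their differences (0.39 and -0.39) are opposite by construction. Actb could not be fitted under the filter to genes above background on at least 3 membranes. These fits mostly reuse the same membranes, so a kept sign does not establish a direction. Within the inferred scan formats the difference took opposite signs for Rps29 (-2.82 and 1.46) and for Actb (0.43 and -2.37). The sign of the Hprt1 and Gapdh differences was not stable, and the cause was not tested. For Hprt1 it turned to 0.053 with cyclic loess, 0.046 with control row scaling, 0.0056 without background correction, 0.73 with membrane weights and 0.07 and 0.91 on leaving out membrane 2 of normoxia or of chronic hypoxia, within a range of -0.73 to 0.91 over the membranes left out. For Gapdh it turned to -0.048 without normalization, -0.68 with the scan format as a block, -0.23 with chronic hypoxia membranes 1 and 3 averaged, and to values from -0.41 to -0.05 on leaving out normoxia membrane 2 or chronic hypoxia membrane 1 or 3, within a range of -0.41 to 1.21. The median SD of the 9 members, 1.08, was 0.71 without background correction, and the median M, 1.39 from quantile-normalized values, was 0.91. Polyubiquitin had the smallest SD of the 9 in each setting, but under control row scaling Rps29 shared it. That scaling subtracts the mean of polyubiquitin and Rps29, so both have the same SD there by construction (0.81). Members above background on at least 5 membranes numbered 4, 4 and 3 at 3, 2 and 5 times the spread.

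The labels give membranes of the same number no shared culture or day, although those numbered 1 and those numbered 2 share an inferred scan format. Correlations of their deviations from the group means were 0.09, 0.11 and 0.02, against -0.12 to 0.03 for membranes of different number. With the membrane number as a replicate block 0 genes passed.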
